A study of Rattus norvegicus with 46 samples.

Results

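The genes described here are 8 listed genes of cholesterol synthesis and its control, namely Hmgcs1, Idi1, Fdps, Fdft1, Sqle, Cyp51, Dhcr7 and Insig1, in the frontal lobe of rats given chlorpyrifos. A gene was taken from the array through every probe set, a group of short probes read as 1 value, whose only symbol in the platform annotation is one of these names. Of the 8 genes, 7 were found, with 10 probe sets among 15866 on the array after removal of control probes, and all 10 were among the 11106 bright enough to be tested. No probe set used here carries Hmgcs1 as its only symbol, so it has no value. Idi1, Fdft1 and Cyp51 each have 2 probe sets, and the one of higher mean stands for the gene where 1 value is needed. The other is called the second probe set.

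Chlorpyrifos is an organophosphate insecticide that, once converted to its oxon form, blocks acetylcholinesterase. All animals were male F344 rats of 11 to 12 weeks, dosed once and killed 96 h later. In experiment A, 3 vehicle rats, 3 rats at 1 mg/kg, 5 at 10 mg/kg and 3 at 50 mg/kg were used. Experiment B gave 4 vehicle rats, 3 at 0.5 mg/kg, 1 at 5 mg/kg and 3 at 30 mg/kg. A second description line of those 4 vehicle rats names 1 mg/kg, while their titles call them controls, and the titles were followed. Experiment C gave 3 vehicle rats, 4 at 1 mg/kg, 3 at 5 mg/kg and 4 at 10 mg/kg. Only B thus held 0.5 and 30 mg/kg, and only A held 50 mg/kg, so that in these animals dose and experiment cannot be told apart beyond each experiment's own vehicle rats. The labels give neither the vehicle nor the route, and they do not say whether the experiments differed in anything but dose.

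The values are Affymetrix signal intensities from about 30 mg of tissue per rat, 1 array per rat, given here as log2 after normalisation. Of 46 arrays, 39 were used. The other 7, which include both 30 mg/kg rats of experiment C, correlated with the rest at no more than 0.0042 in size over probe sets, against at least 0.942 for each array used, and were left out because their rows cannot be matched to probe sets. In the 39 arrays used, medians of the deposited intensities lay between 229 and 286, apart from 112 in the 5 mg/kg rat of experiment B. Their trimmed mean, which leaves out the most extreme values, was 499.9 to 500.3, apart from 205.5 in that rat. The deposited intensities of the other arrays used had thus already been scaled, so their medians do not measure how bright the arrays were. The array of 1 mg/kg rat 1 of experiment C stood apart by its beta-actin 3'/5' ratio of 4.72, a sign of RNA quality, where every other array used had at most 2.15. Neuron markers were bright in every group, with summed intensities of 40754 to 54970 over 11 genes, while striatum markers ranged from 4569 to 36453 over 9 genes and choroid plexus markers from 1521 to 21613 over 4 genes. In such bulk tissue, fewer cells of a type and less RNA per cell cannot be told apart.

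Cells build cholesterol from acetyl-CoA through mevalonate. Hmgcs1 acts on the way to mevalonate, Idi1 and Fdps turn its isoprenoid products into farnesyl diphosphate, Fdft1 and Sqle make and oxidise squalene, and Cyp51 and Dhcr7 act on the sterols that follow. Insig1 is no enzyme: when sterols are plentiful it holds the SCAP protein, and with it the transcription factor SREBP-2, in the endoplasmic reticulum, and the Insig1 gene is itself switched on by SREBPs. The adult brain makes its own cholesterol because lipoproteins of the blood do not cross the blood-brain barrier, with astrocytes and myelinating oligodendrocytes as main sources.

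SREBPs act on promoters together with NF-Y, which binds the CCAAT box. The RefSeq promoter table for the rat build GRCr8 holds windows of 250 bases before to 50 bases after the gene start for 6 of the 8 genes, and not for Sqle or Fdft1. The windows of Idi1, Fdps and Insig1 are printed 5′ to 3′ on the gene's strand, because Idi1 and Insig1 varied together over animals in the results that follow while Fdps did not pass that test with any other gene. Capitals mark each CCAAT box, written CCAAT on the gene's strand or ATTGG where it lies on the other strand.
Idi1, chr17:66547475-66547774, minus strand: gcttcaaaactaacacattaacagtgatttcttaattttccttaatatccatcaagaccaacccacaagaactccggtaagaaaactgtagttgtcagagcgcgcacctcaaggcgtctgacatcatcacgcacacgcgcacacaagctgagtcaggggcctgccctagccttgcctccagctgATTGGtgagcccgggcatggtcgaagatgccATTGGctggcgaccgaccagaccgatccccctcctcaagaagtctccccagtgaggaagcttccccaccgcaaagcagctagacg
Fdps, chr2:176804767-176805066, minus strand: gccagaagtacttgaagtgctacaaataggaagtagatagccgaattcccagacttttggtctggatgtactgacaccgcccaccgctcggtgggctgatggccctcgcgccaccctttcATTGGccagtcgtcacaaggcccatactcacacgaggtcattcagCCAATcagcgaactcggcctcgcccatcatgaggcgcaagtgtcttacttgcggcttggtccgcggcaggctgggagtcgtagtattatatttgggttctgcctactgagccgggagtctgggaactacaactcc
Insig1, chr4:8057720-8058019, minus strand: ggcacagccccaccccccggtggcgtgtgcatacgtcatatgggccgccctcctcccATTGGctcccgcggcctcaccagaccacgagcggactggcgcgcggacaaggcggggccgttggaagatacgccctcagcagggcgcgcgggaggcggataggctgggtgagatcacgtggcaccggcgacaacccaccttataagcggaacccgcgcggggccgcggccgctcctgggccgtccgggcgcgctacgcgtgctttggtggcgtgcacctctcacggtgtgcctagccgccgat
The Idi1 and Fdps windows hold 2 boxes each and the Insig1 window holds 1. A CCAAT box on either strand was found in 4 of the 6 windows, against 37.5% of all 33469 windows in the table, and 2 or more in 3 of the 6, against 11.2%. The Cyp51 window at chr4:30991443-30991742 and the Dhcr7 window at chr1:208444184-208444483, both on the plus strand, hold none. The letters TCACNCCA, part of a sterol regulatory element, were in 0 of the 6 windows, against 3.89% of all windows. The overlapping letters CACNCCAC were in the Insig1 window alone, with 2 matches on the opposite strand, against 5.8% of all windows. These are matches of letters, and the array does not measure binding at them.

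Among rats of the same experiment and dose, these genes differed more than most. The standard deviation within groups had a median of 0.29 on the log2 scale over the 10 probe sets, against 0.21 over all 11106 tested. Sqle, which encodes squalene epoxidase, a rate-limiting step after mevalonate, was the most variable at 0.46, above 94.6% of probe sets tested. It spanned 1.58 log2 units over the 39 rats, with single rats at 8.06 in experiment A, 8.01 in B and 8.09 in C. Dhcr7, the enzyme of the last step to cholesterol, had a standard deviation of 0.20, close to the median of all probe sets, and the second Fdft1 probe set had the lowest, 0.15.

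**Figure D1:**
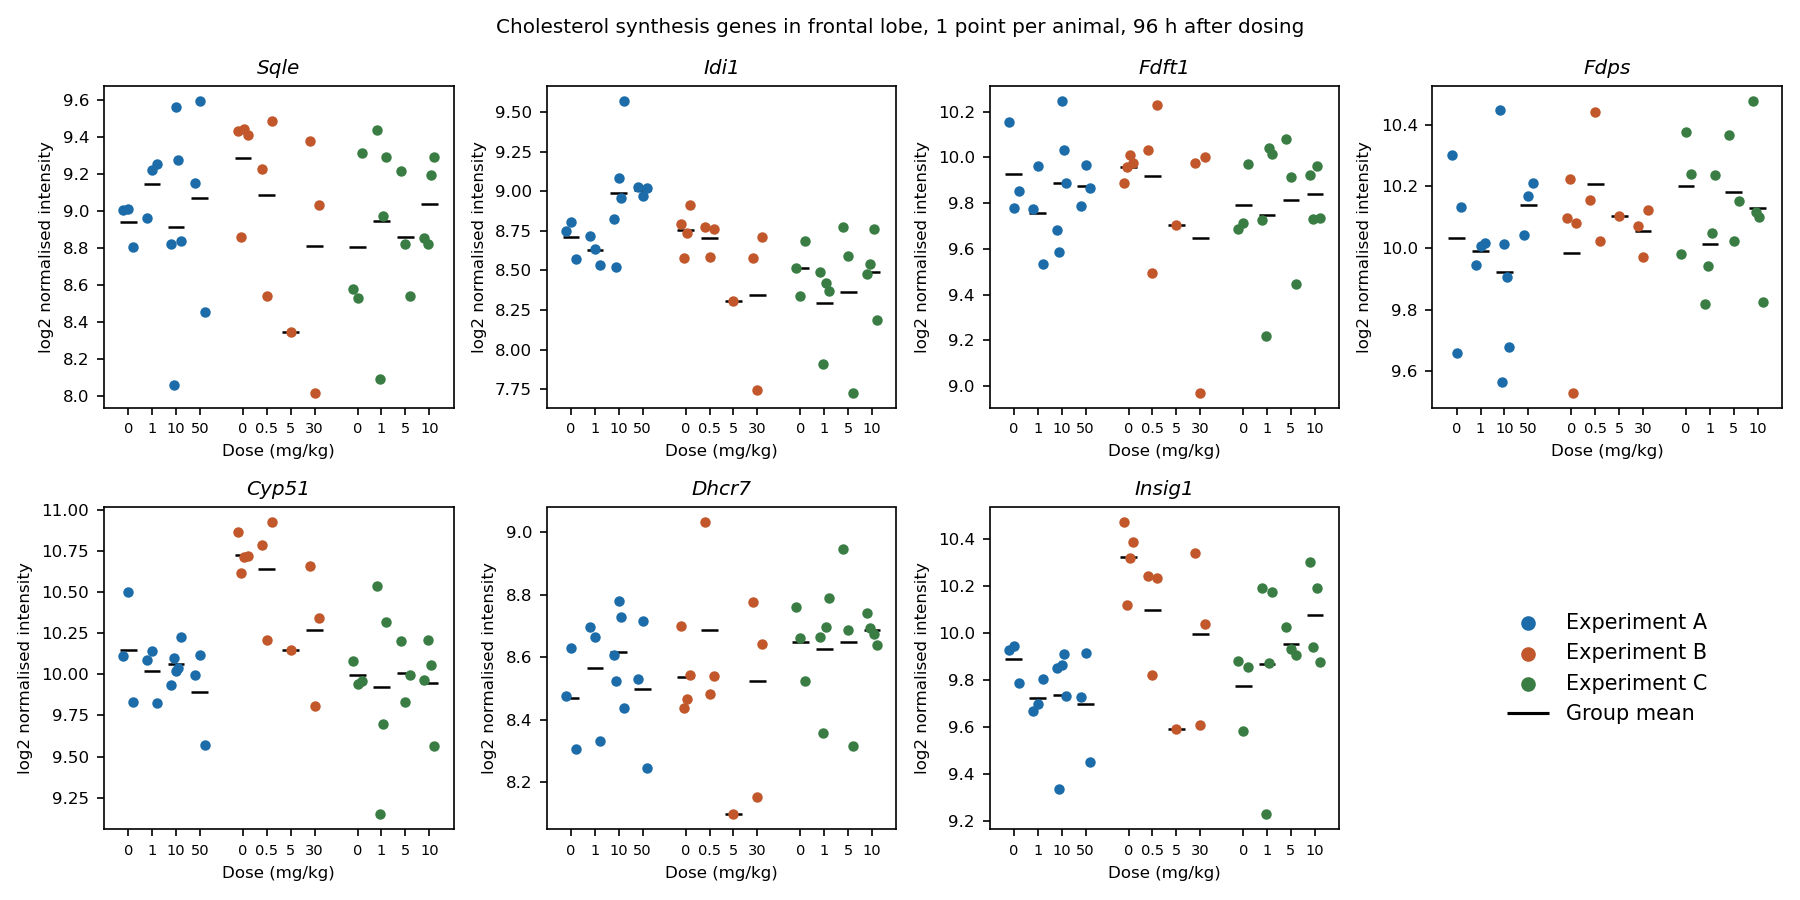
Log2 normalised intensity of 7 cholesterol synthesis genes in each rat (1 point per rat), by experiment and dose in mg/kg, with 0 for vehicle and a bar at the group mean; each gene has its own axis. Sqle has single low rats in each experiment, and Cyp51 and Insig1 lie higher in the vehicle rats of experiment B than in those of A and C.

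None of these genes passed the test at any dose. The question was whether each dose differs from vehicle 96 h after dosing, tested with limma on all probe sets with experiment as a term and Benjamini-Hochberg adjustment at 0.05. At 50 mg/kg, 0 of the 10 probe sets passed, as did 0.018% of all probe sets. At 0.5, 1, 5, 10 and 30 mg/kg and in the dose trend, 0 of 10 passed, where 0% of all probe sets did. An unadjusted p under 0.05 was reached by 0 of 10 at 0.5, 1, 5 and 10 mg/kg, against 7.62%, 2.54%, 2.48% and 2.68% of all. The tests thus made almost no calls on the whole array, and the absence of a call among these genes does not set them apart. The intervals say how large a change could have been missed: at 50 mg/kg the 95% interval of Sqle ran from -0.53 to 0.75 on the log2 scale, and that of Insig1 from -0.49 to 0.27.

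**Figure D2:**
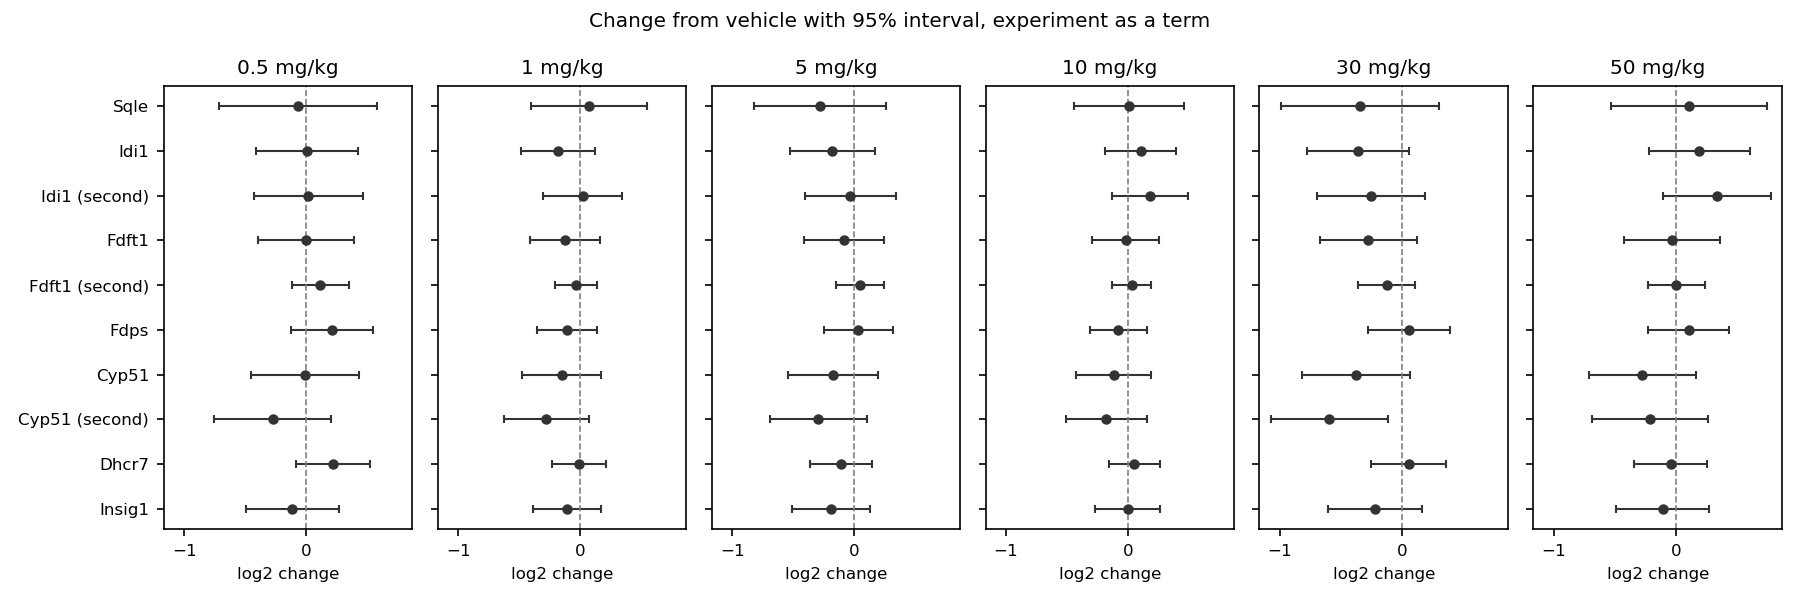
Log2 change from vehicle of the 10 probe sets at each dose, from the fit with experiment as a term; points are estimates and bars 95% intervals. At 1, 5 and 30 mg/kg, 8 of the 10 estimates lie below 0. Only the interval of the second Cyp51 probe set at 30 mg/kg excludes 0.

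At 50 mg/kg estimates lay on both sides of vehicle, and the 95% intervals of all 10 probe sets held 0. Idi1, the isomerase that makes the starter unit of all isoprenoids, had log2 values of 9.03, 8.97 and 9.02 in the 50 mg/kg rats, against 8.75, 8.80 and 8.57 in the vehicle rats of experiment A. All 3 dosed rats lay above all 3 vehicle rats, and the second probe set gave 8.47, 8.30 and 8.48 against 8.14, 8.34 and 7.83, where the groups overlapped. How many of all probe sets separate all 3 dosed from all 3 vehicle rats was not counted. The pooled changes of both Idi1 probe sets were 0.19 ± 0.20 and 0.33 ± 0.22 (log2 ± SE, limma adjusted p = 0.881 and 0.758). Cyp51, lanosterol 14-alpha-demethylase, had 9.99, 10.12 and 9.57 at 50 mg/kg, against 10.11, 10.50 and 9.83 in vehicle rats. Its change was -0.28 ± 0.22 with an adjusted p of 0.811, and the groups overlapped. Sqle was at 9.15, 9.60 and 8.45 in the 50 mg/kg rats, against 9.01, 9.01 and 8.80 in vehicle rats, so that the dosed rats lay on both sides of the vehicle rats. Over the 10 probe sets, 5 were lower and 5 higher than vehicle, with a median change of -0.01, against 0.01 over all probe sets. None had an unadjusted p under 0.05, a mark passed by 7.99% of all probe sets.

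At 30 mg/kg, all in experiment B, most of the genes had lower estimates. Pooled over the fit, 8 of 10 probe sets were lower than vehicle, with a median of -0.26, against 0.01 over all probe sets, of which 48.6% were lower. Set against the vehicle rats of experiment B alone, 9 of 10 were lower, with a median of -0.33. Again 0% of all probe sets passed. With 1 probe set per gene, 5 of 7 genes were lower in the pooled fit and 6 of 7 within B. Most of these genes varied together over rats, as described further on, so the counts are not of separate directions. The second Cyp51 probe set had 9.55, 8.16 and 8.49 in the 30 mg/kg rats, against 9.50, 9.30, 9.64 and 9.45 in vehicle rats of B. Rats 3 and 4 at 30 mg/kg lay below every vehicle rat and rat 2 among them. The change within B was -0.74 ± 0.23, or 0.60-fold with a 95% interval of 0.43 to 0.83 (limma adjusted p = 0.244), and the pooled change was -0.60 ± 0.24 (adjusted p = 0.434). With 1 array left out at a time, the change within B ranged from -1.15 without 30 mg/kg rat 2 (adjusted p = 0.0344) to -0.45 without rat 3 (adjusted p = 0.712). It was the 1 probe set of 10 with an unadjusted p under 0.05, which 10.2% of all probe sets reached within B and 9.25% in the pooled fit.

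The other probe set of Cyp51 had 10.66, 9.81 and 10.34 at 30 mg/kg, against 10.86, 10.61, 10.71 and 10.72 in vehicle rats of B (change -0.46 ± 0.23, adjusted p = 0.494). Rats 3 and 4 were again below every vehicle rat. The ending _s_at of its identifier marks a set whose probes match more than 1 transcript, and the second probe set has no such mark. Insig1 had 10.34, 9.61 and 10.04 at 30 mg/kg, against 10.47, 10.12, 10.32 and 10.39 in vehicle rats (change -0.33 ± 0.18, limma adjusted p = 0.545). The 30 mg/kg means of Cyp51 and Insig1, 10.27 and 9.99, lay above the vehicle means of A (10.15 and 9.89) and C (9.99 and 9.77). That of the second Cyp51 probe set, 8.73, lay below them (9.14 in A and 8.99 in C). For Idi1 the values were 8.58, 7.74 and 8.71 at 30 mg/kg, against 8.80, 8.58, 8.74 and 8.92 (change -0.41 ± 0.21, adjusted p = 0.522). In each of these genes, as in Fdft1 and Sqle, rat 3 was the lowest of the 3 rats, and the 1 estimate above 0 was that of Fdps, 0.07 ± 0.18. These estimates were smaller without that rat, where 7 of 10 were lower than vehicle, with a median of -0.07. The change without it within B was -0.08 for Sqle, -0.11 for Idi1, -0.23 for Cyp51 and -0.14 for Insig1, and Fdft1 and Dhcr7 turned to 0.03 and 0.17. Without rat 2 the changes were -0.76 for Sqle and -0.50 for Insig1.

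Some other measures, though not all, also differed between the 30 mg/kg and vehicle rats of experiment B. Summed intensity of 7 endothelial markers was 4204 to 7270 in the 30 mg/kg rats, against 3361 to 3884 in vehicle rats of B, with no overlap, and 6 of the 7 markers were higher, with a median log2 change of 0.39. The sum over 8 microglia markers was 3466 to 7316 at 30 mg/kg and 3264 to 3727 in vehicle rats. Astrocyte markers, of which 10 of 11 were higher, summed to 43795 to 49118 at 30 mg/kg, against 40568 to 43291, and the 2 blood markers to 981 to 4091, against 4385 to 5519, both without overlap. Striatum markers were lower in 9 of 9, with a median of -0.72, and their sums overlapped at 7736 to 11791 in the 30 mg/kg rats, against 5554 to 25834 in vehicle rats. Other lists went both ways: 4 of 11 neuron markers were higher (median -0.03), 6 of 11 myelin (0.02), 2 of 4 choroid plexus (-0.04) and 3 of 5 hypothalamus markers (0.16). How many of all probe sets separate these 2 groups without overlap was not counted. The beta-actin 3'/5' ratio was 1.32 to 1.56 in the 30 mg/kg rats, against 1.66 to 2.15 in the vehicle rats of B. The part of these differences in the lower values of the cholesterol genes was not tested.

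A dose of 5 mg/kg was given to 1 rat in experiment B and to 3 used here in C. The single rat of B had 8.35 for Sqle, 9.59 for Insig1, 8.45 for the second Cyp51 probe set and 8.10 for Dhcr7, each below all 4 vehicle rats of that experiment, whose lowest values were 8.86, 10.12, 9.30 and 8.44. Idi1 at 8.31, Fdft1 at 9.70, their second probe sets and Cyp51 at 10.15 also lay below all 4. Fdps at 10.10 lay among them. How many of all probe sets lie below all 4 vehicle rats was not counted. Within B, 9 of 10 probe sets were lower, with a median of -0.45, and none passed, as against 0.018% of all probe sets. The second Cyp51 probe set (-1.02 ± 0.34, adjusted p = 0.45) and Insig1 (-0.73 ± 0.26, adjusted p = 0.509) had an unadjusted p under 0.05, or 2 of 10, against 7.21% of all. With 1 rat, its spread is taken to be that of the other groups. That array was the one with low deposited intensities, not at the common scale of the others. Its sums of 5458 for endothelial, 7374 for microglia, 48418 for astrocyte and 30357 for striatum markers exceeded those of every vehicle rat of B. Its sums of 40754 for neuron markers, with 11 of 11 lower, and 1234 for blood markers lay below every vehicle rat of B. The part of these differences in its values was not tested. In the 3 rats of C, Sqle was at 9.21, 8.82 and 8.54 and Insig1 at 10.03, 9.93 and 9.91, against 8.58, 8.53 and 9.31 for Sqle and 9.88, 9.58 and 9.86 for Insig1 in the vehicle rats of C. The median change within C was 0.04. The difference of the effect, C minus B, had a median of 0.52 and was largest for the second Cyp51 probe set, 1.08 ± 0.42 (adjusted p = 0.398), followed by Sqle at 0.99 ± 0.59 and Insig1 at 0.91 ± 0.32 (adjusted p = 0.589 and 0.37). Here 0 of 10 passed, with 0% of all probe sets, and 2 of 10 had an unadjusted p under 0.05, with 10.2% of all.

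At 0.5 and 10 mg/kg estimates went both ways, with 5 of 10 lower than vehicle at each. At 1 mg/kg 8 of 10 were lower, where 52% of all probe sets were. The pooled fit had 8 of 10 lower at 5 and at 30 mg/kg too. The median change over the 10 probe sets was -0.0008 at 0.5 mg/kg, -0.11 at 1 mg/kg and 0.0022 at 10 mg/kg. At 1 mg/kg it was -0.06 within A and -0.03 within C, and at 10 mg/kg -0.03 within A and 0.01 within C. Within A, 0 of 10 probe sets passed at 10 mg/kg, against 0.009% of all, and 0 of 10 at 50 mg/kg, against 0.036% of all. Single estimates reached -0.42 ± 0.23 for the second Cyp51 probe set at 0.5 mg/kg within B, and 0.34 ± 0.23 for the second Idi1 probe set and 0.30 ± 0.18 for Insig1 at 10 mg/kg within C, none of which passed. The difference of the effect of 1 or 10 mg/kg between A and C passed in 0 of the 10, as in 0% of all probe sets. In the trend over log2(dose + 1), 7 of 10 slopes were below 0. The steepest among the representative probe sets was that of Cyp51, -0.05 ± 0.02 per unit (limma adjusted p = 0.646), the 1 of 10 with an unadjusted p under 0.05, against 7.66% of all.

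Vehicle rats differed between the experiments over the whole array. Between the 3 vehicle groups, 0 of the 10 probe sets passed the moderated F test, against 7.8% of all, and 2 had an unadjusted p under 0.05, against 22.6% of all. Those 2 were Cyp51 and Insig1. Cyp51 averaged 10.73 ± 0.10 in vehicle rats of B (SD, n = 4), 9.99 ± 0.07 in those of C and 10.15 ± 0.33 in those of A (n = 3 each), with a limma adjusted p of 0.064. Every vehicle rat of B was above every vehicle rat of A and C. Insig1 averaged 10.32 ± 0.15 in B, 9.77 ± 0.17 in C and 9.89 ± 0.09 in A, with a limma adjusted p of 0.08. Again B lay above A and C without overlap. How many of all probe sets separate the vehicle rats of B in this way was not counted. Among 47 alternative settings, most of which leave out 1 array, Cyp51 passed in 4 and Insig1 in 2, with adjusted p between 0.0118 and 0.169 and between 0.0194 and 0.233. Those settings were array weights and leaving out 1 mg/kg rat 2 of C for both genes, and for Cyp51 also leaving out vehicle rat 3 of A or 1 mg/kg rat 1 of C. The second Cyp51 probe set, with B minus A at 0.33, passed in none, and its vehicle rats of A and B overlapped. A second description line of the 4 vehicle rats of B names 1 mg/kg, while their titles call them controls. The labels do not say what else differed between the experiments. Beta-actin 3'/5' ratios were 1.66 to 2.15 in vehicle rats of B, 1.39 to 1.44 in those of C and 1.49 to 1.85 in those of A.

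Apart from dose, 6 of the 7 genes varied together from rat to rat. To describe this, the mean of each experiment and dose was removed, leaving how far each rat lay from its own group, and 21 pairs of genes were tested by permutation of rats within groups, with 100000 resamples, two-sided. All 15 pairs among Idi1, Fdft1, Sqle, Cyp51, Dhcr7 and Insig1 passed after Benjamini-Hochberg adjustment over the 21 pairs, with Pearson r between 0.52 and 0.84 and adjusted p between 0.00077 and 0.0368. For scale, the r of all pairs among the 11106 probe sets had a median of -0.002 and a 95th percentile of 0.39. By rank, Spearman rho lay between 0.36 and 0.76 and 14 of the 15 passed; Fdft1 with Cyp51 did not (rho 0.36, permutation adjusted p = 0.114). This pair's r of 0.53 also lost its call when any of 10 rats was left out, down to 0.39 without 1 mg/kg rat 2 of C. The others were 1 mg/kg rat 3 of A, the 3 rats at 0.5 mg/kg and the 3 at 30 mg/kg of B, and 1 mg/kg rat 4 and 5 mg/kg rat 1 of C.

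**Figure D3:**
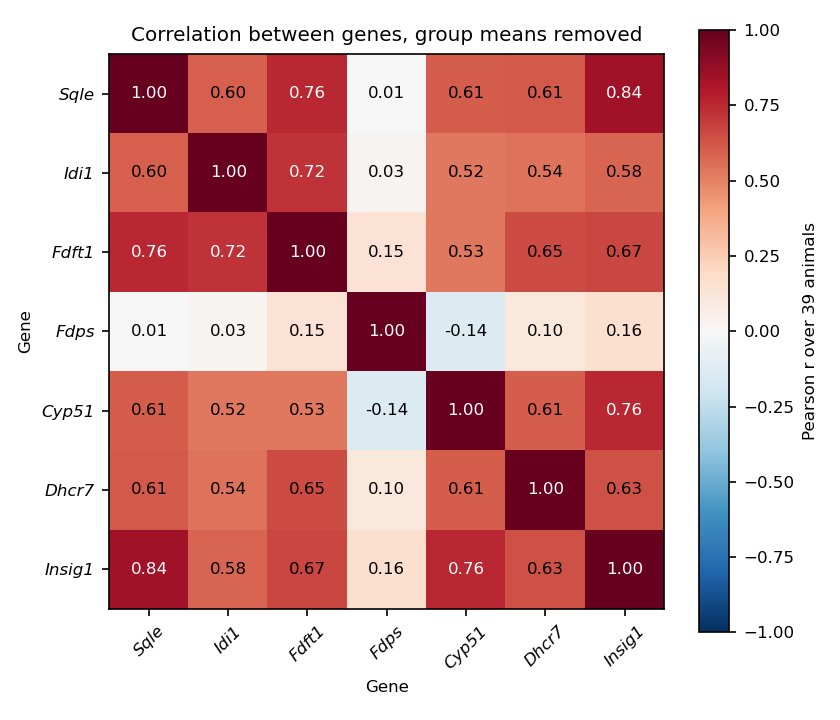
Pearson correlation between genes over 39 rats after removal of each group's mean, with the same gene order on both axes, with colour from -1 to 1. The 15 pairs without Fdps lie at 0.52 to 0.84 and the 6 pairs with Fdps at -0.14 to 0.16.

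The closest pair was Sqle and Insig1, an enzyme and the regulator, both known SREBP-2 targets. Their r was 0.84 (permutation p = 4e-05, adjusted p = 0.00077; rho 0.76), and it was 0.92 within A, 0.97 within B and 0.72 within C. Sqle with Fdft1, its neighbour in the squalene steps, had 0.76, as had Cyp51 with Insig1. Idi1 with Fdft1 had 0.72. Within each experiment all 15 pairs had r above 0, with a median of 0.42 in A, 0.83 in B and 0.63 in C. In A the lowest were Idi1 with Dhcr7 at 0.03 and Fdft1 with Cyp51 at 0.09. Leaving out the 2 rats farthest from the median of the first gene of each pair gave r of 0.32 to 0.78, with a median of 0.58. Without those rats r was lower in 14 of the 15 pairs, Cyp51 with Dhcr7 being the exception (0.61 with and without them), and none turned. The second probe sets, which did not enter the 21 pairs, had r of 0.71 (Idi1), 0.64 (Fdft1) and 0.64 (Cyp51) with the mean of the 7 standardised genes, although their own genes are part of that mean.

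Fdps, farnesyl diphosphate synthase, which supplies both the sterol and the prenyl branches, did not pass with any of the other 6. Its r lay between -0.14 with Cyp51 and 0.16 with Insig1, and adjusted p between 0.454 and 0.97. Its spread within groups, 0.24, was close to that of Insig1, 0.24, so Fdps was not a gene without variation. In 10 mg/kg rat 2 of A, Sqle was 0.85 below its group mean and Fdps 0.36 below, while in vehicle rat 3 of B Fdps was 0.45 below and Sqle 0.16 above. Whether its r differs from those of the other pairs was not tested, and a p above the threshold does not show that Fdps varied independently.

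The shared variation rested on rats from all 3 experiments and on several doses. In standard deviation units, the mean of the 7 genes was lowest in 1 mg/kg rat 2 of C, at -1.99, and 30 mg/kg rat 3 of B, at -1.93, where all 7 genes were below their group mean. In the rat of C, Sqle was at 8.09, against 9.43, 8.97 and 9.29 in the other 1 mg/kg rats of C, Cyp51 at 9.15, against 10.54, 9.70 and 10.32, and Insig1 at 9.23, against 10.19, 9.87 and 10.17. It lay below the others of its group in each of these genes. Next came 10 mg/kg rat 2 of A (-1.35, 6 of 7 genes below), 5 mg/kg rat 4 of C (-1.05, 7 of 7 below) and 0.5 mg/kg rat 3 of B (-0.96, 6 of 7 below). The highest were 30 mg/kg rat 2 of B (1.21), 5 mg/kg rat 1 of C (1.06) and 1 mg/kg rat 4 of C (1.05), each with 7 of 7 genes above. The 30 mg/kg group of B thus held both an extreme low and an extreme high rat. The single 5 mg/kg rat of B is its own group mean and adds a deviation of 0.

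**Figure D4:**
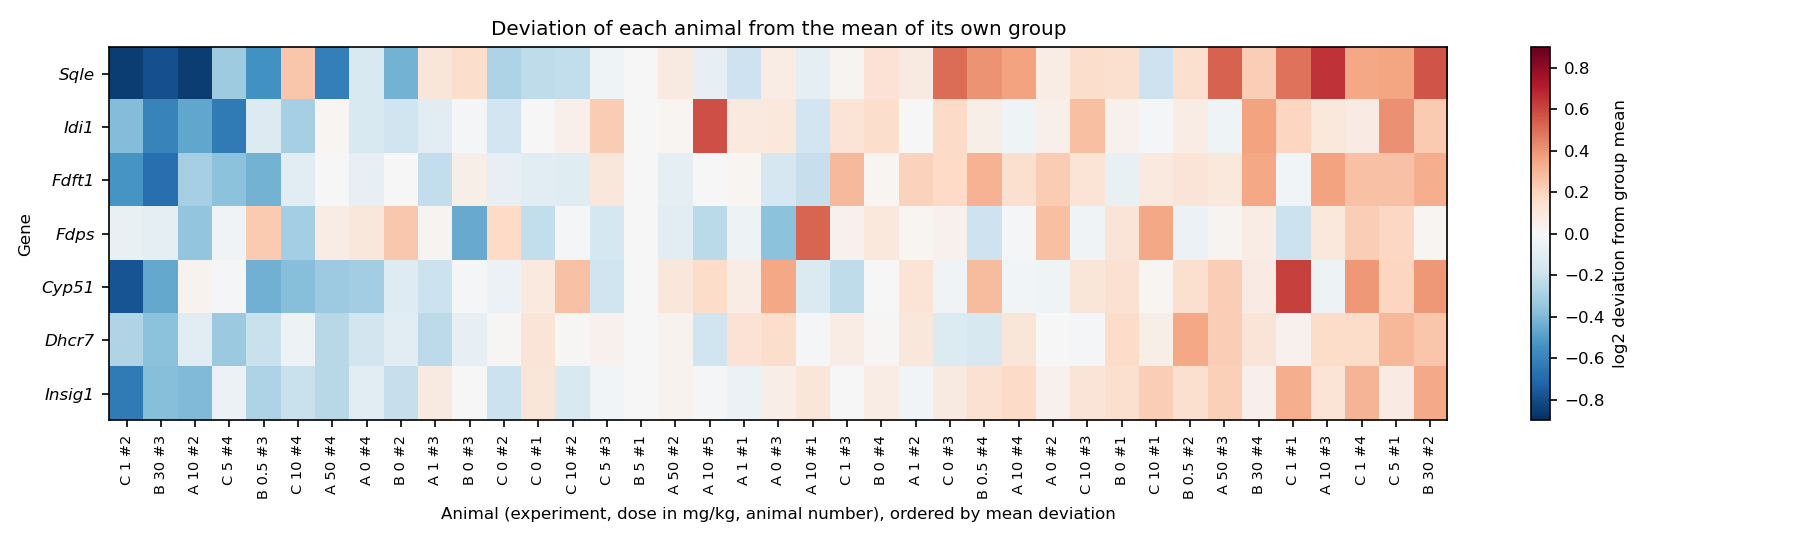
Log2 deviation of each gene (down the page) from the mean of its experiment and dose group, for each of 39 rats (across, by experiment, dose in mg/kg and animal number) ordered by mean deviation in standard deviation units. The 2 rats at the far left, 1 mg/kg rat 2 of C and 30 mg/kg rat 3 of B, have all 7 genes below their group means, and the 3 at the far right have all 7 above.

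Other genes of sterol metabolism were described from lists, chosen like the 8 genes with earlier results of these data known. None of 11 other synthesis enzymes, 9 genes of SREBP control and sterol uptake, 13 of cholesterol transport and turnover, 14 of fatty acid synthesis and 5 of the prenyl branch passed at any dose or in the trend. Among other synthesis enzymes at 50 mg/kg, 7 of 11 were lower, with a median of -0.09. Hsd17b7, a sterol ketoreductase, was at -0.60 ± 0.22 (limma adjusted p = 0.463), Sc5d, a sterol desaturase, at 0.31 ± 0.16 and Msmo1, a sterol methyl oxidase, at -0.17 ± 0.14. At 30 mg/kg, 6 of 11 were lower with a median of -0.10, led by Tm7sf2, a sterol reductase, at -0.92 ± 0.55 (adjusted p = 0.626), with Ebp, a sterol isomerase, at 0.29 ± 0.21 and Msmo1 at -0.16 ± 0.15. At 10 mg/kg, 5 of 11 were lower, with a median of 0.01, and Ebp, Msmo1 and Sc5d had 0.22, 0.12 and 0.10. In the trend, Hsd17b7, Sc5d and Tm7sf2 had slopes of -0.04, 0.02 and -0.07.

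Of the SREBP genes, 7 of 9 were higher at 50 mg/kg, with a median of 0.10. Scap, the partner that carries SREBP to the Golgi, was at -0.25 ± 0.11 (adjusted p = 0.559), Erlin2 at 0.14 ± 0.12 and Srebf1, the gene of SREBP-1, at 0.20 ± 0.20. At 30 mg/kg, 6 of 9 were lower, with a median of -0.09, and Mbtps2, a protease that releases SREBP, was at -0.30 ± 0.17, Srebf1 at 0.20 ± 0.20 and Insig2, the paralogue of Insig1, at -0.12 ± 0.14. At 10 mg/kg, 7 of 9 were lower, with a median of -0.03, and Erlin2, Mbtps2 and Mbtps1 had -0.12, -0.11 and -0.06. Slopes of the trend were -0.02 for Scap, 0.04 for Srebf1 and -0.03 for Mbtps2.

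In cholesterol transport, 10 of 13 genes were higher at 50 mg/kg, with a median of 0.07. Lcat, which esterifies cholesterol on lipoproteins, had the largest of the 3 named changes, 1.00 ± 0.27 (limma adjusted p = 0.226). Apoe, the gene of the main apolipoprotein of the brain, was at 0.13 ± 0.08 and Npc2 at 0.19 ± 0.13. The 30 mg/kg rats had 8 of 13 higher, with a median of 0.08, and the lipoprotein receptor gene Lrp1 was at 0.19 ± 0.09, Osbp at -0.19 ± 0.10 and Soat1, which stores cholesterol as ester, at 0.35 ± 0.21. At 10 mg/kg, 7 of 13 were higher, and Lrp8, Abcg4 and Lcat had 0.23, 0.15 and 0.21. In the trend, 11 of 13 slopes were above 0, with Apoe at 0.02, Lcat at 0.06 and Nr1h2, a liver X receptor, at 0.03.

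Fatty acid synthesis, which shares SREBP control, had 9 of 14 genes higher at 50 mg/kg, with a median of 0.06. Acly, which makes cytosolic acetyl-CoA, was at 0.29 ± 0.09 (adjusted p = 0.304), the elongase Elovl5 at 0.32 ± 0.12 and the desaturase Fads2 at 0.48 ± 0.19. In the 30 mg/kg rats 8 of 14 were higher, with a median of 0.01, and Elovl5, Scd and Elovl6 had -0.26, 0.39 and -0.27. At 10 mg/kg, 8 of 14 were higher, with Fads2, Acsl1 and Scd2 at 0.25, -0.16 and -0.12, and in the trend 9 of 14 slopes were above 0, with Fads2, Acly and Scd at 0.05, 0.03 and 0.05. In the prenyl branch, Dhdds, which makes dolichol precursors, was at -0.67 ± 0.17 at 50 mg/kg (limma adjusted p = 0.226), Fntb at 0.49 ± 0.20 and Fnta at 0.20 ± 0.11. At 30 mg/kg Dhdds, Fnta and Pggt1b were at -0.30, -0.17 and -0.31, and at 10 mg/kg Dhdds, Pdss2 and Fntb at -0.25, 0.26 and 0.18. Trend slopes were -0.09 for Dhdds (adjusted p = 0.157), 0.06 for Fntb and -0.0045 for Pggt1b. Between vehicle groups, where 7.8% of all probe sets passed, only 1 gene of these lists did. It was Fnta, a subunit of protein farnesyltransferase, with C minus A at 0.46 and B minus A at 0.23 (moderated F test, adjusted p = 0.0334).

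Over rats, with group means removed, the mean of the 7 genes had its highest correlations among the gene lists with other enzymes of sterol and fatty acid synthesis. No p is given for a mean over chosen genes, and all of these correlations share the same 39 arrays. Of 11 other synthesis enzymes, 10 had r above 0 with the mean of the 7 genes, with a median of 0.56, against a median of 0.0043 and a 95th percentile of 0.43 over all probe sets. Their own mean had r = 0.83 (rho 0.77; 0.60 in A, 0.96 in B and 0.81 in C; 0.75 without the 2 farthest rats). Lbr, a sterol reductase that is also a receptor of the nuclear envelope, was the 1 below 0, at -0.39. In fatty acid synthesis 13 of 14 genes had r above 0, and the mean had r = 0.74 (rho 0.65; 0.61 without the 2 farthest). Fasn, fatty acid synthase, had 0.61, Me1, a source of NADPH, 0.66, and Acly 0.17. The means of the SREBP genes, the transport genes and the prenyl branch had r of 0.12, 0.01 and 0.18.

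Cell type markers moved with the same mean. Microglia markers had r = -0.67 as a mean (rho -0.55; -0.59 without the 2 farthest rats), with 7 of 8 genes below 0, among them the complement genes C1qa, C1qb and C1qc at -0.74, -0.71 and -0.75. Endothelial markers had r = -0.66 (rho -0.50; -0.50 without the 2 farthest), with 6 of 7 below 0; it was -0.12 in A, -0.89 in B and -0.75 in C. Neuron markers had r = 0.52, with 8 of 11 genes above 0. Astrocyte and myelin markers, of the cell types known for cholesterol synthesis, had -0.27 and -0.12, with signs that differed between experiments. Astrocyte markers had 0.20 in A, -0.56 in B and -0.32 in C, and single genes from -0.57 to 0.75. Myelin markers had 0.40 in A, -0.21 in B and -0.21 in C. The means for choroid plexus, striatum, hypothalamus and blood had -0.11, -0.29, 0.21 and 0.46. The last was over 2 genes and was 0.27 without the 2 farthest rats. The median of the deposited intensities, which were already scaled, had r = -0.31, the beta-actin 3'/5' ratio 0.19 and the Gapdh 3'/5' ratio 0.09. The part of tissue make-up in the shared variation was not tested.

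**Figure D5:**
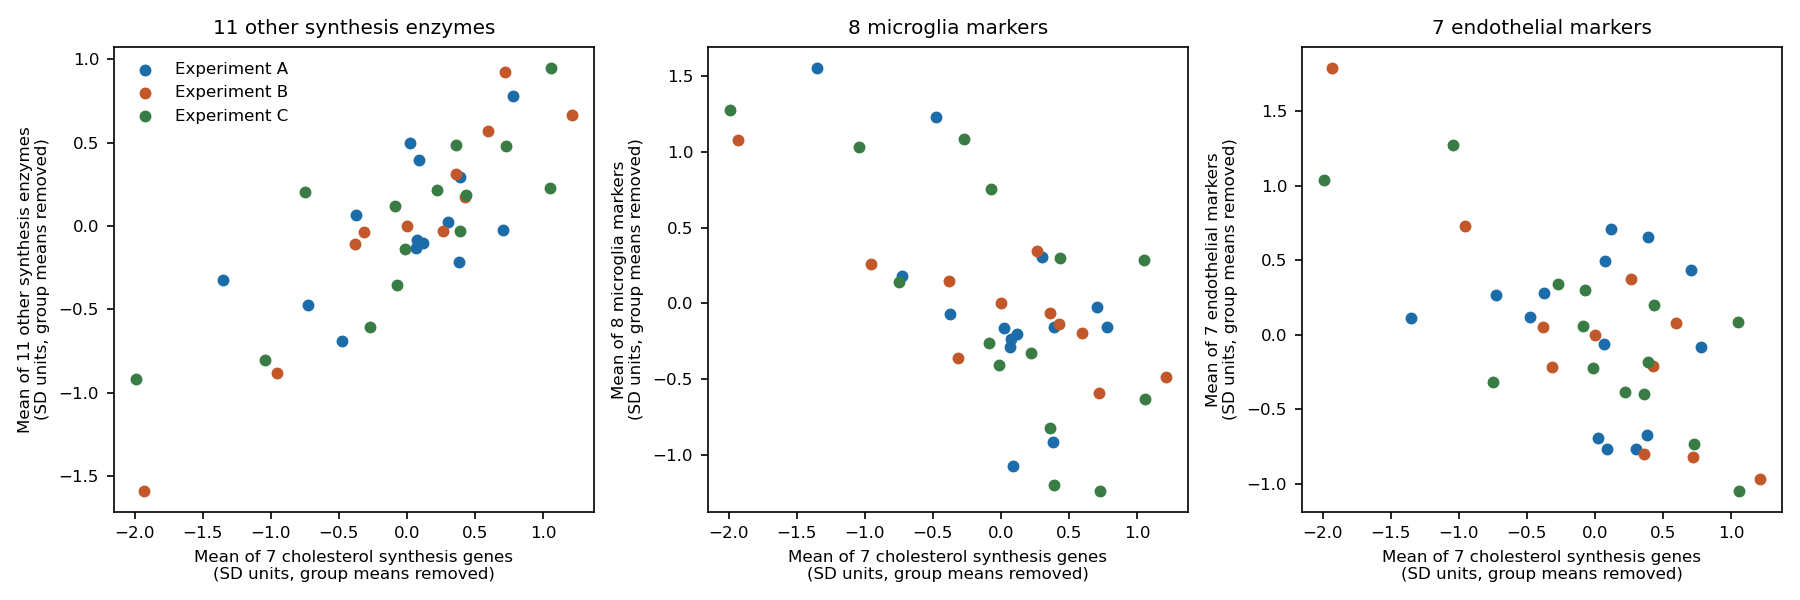
Mean of 11 other synthesis enzymes, 8 microglia markers and 7 endothelial markers (y axes) against the mean of the 7 cholesterol synthesis genes (x axes), 1 point per rat, in standard deviation units with group means removed and coloured by experiment. The enzymes rise with the 7 genes (r = 0.83), and the markers run the other way (r = -0.67 and -0.66).

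Neighbours were ranked over tested probe sets with 1 symbol, other than those of the 7 genes. Probe sets with several symbols or none were not ranked. The 6 genes most like the mean of the 7, by r over 39 rats, were Acat2 (0.84), Hsd17b7 (0.81), Tubb2a (0.79), Pepd (0.77), Aqp4 (0.75) and Fads1 (0.74). Acat2 is cytosolic acetoacetyl-CoA thiolase, the step before Hmgcs1, and it had 0.85 in A, 0.83 in B and 0.88 in C. Hsd17b7 acts between Cyp51 and Dhcr7, and Fads1 desaturates fatty acids. Tubb2a is a tubulin, Pepd a dipeptidase and Aqp4 the water channel of astrocytes. For scale, 0.045% of all probe sets tested, with or without a symbol, had an r at or above that of Acat2. That share includes Acat2 itself and, of the 7 genes, Insig1, Fdft1 and Sqle.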

How the data were processed

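RNA from the frontal lobe of each rat was measured on 1 Affymetrix array, with 15 ug of total RNA labelled with biotin, per the labels' protocols. The authors deposited 1 signal intensity per probe set on a linear scale, without detection calls, and the software that summarised the probes was not stated in the sources used here. Of 15866 probe sets without controls, 12783 have 1 symbol in the platform annotation, 312 several and 2771 none.

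Of 46 arrays, 39 with a median correlation of at least 0.5 with the others were kept (intensities floored at 16 for this check). Arrays were brought to the same median, values under the 5th percentile (intensity 11.0) were raised to it, and the result was converted to log2 and quantile normalised. Probe sets under the 30th percentile of mean level were dropped, leaving 11106. Tests used R 4.3.3 and limma 3.58.1 with a trended prior and Benjamini-Hochberg adjustment over 11106. Pooled fits had experiment plus dose as a factor or log2(dose + 1). Values within an experiment came from a fit with 1 mean per experiment and dose. Intervals are 95%. Correlations used Python 3.11.15 and SciPy 1.17.1, with animals permuted within groups. The procedures were tested on simulated data.

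The members, gene lists and markers were chosen with earlier results of these data known, and the promoter motifs after the expression results. Named genes are all probe sets of the members, list genes that passed, the 3 of smallest p per list at 50, 30 and 10 mg/kg and in the trend, and the 6 genes of highest r; others named were chosen after their values were seen. Over 43 same-numbered pairs, correlations were -0.39 to 0.30 (median 0.0035, 9 over 0.1). The 3 pairs of 1 with 5 mg/kg in C had 0.27, 0.30 and 0.23, and those groups were not compared. Vehicle with 1 mg/kg in C, which were compared, had -0.11, 0.20 and 0.26. Animal numbers were not taken to pair the rats, and a fit with them as a block is described further on. No 2 arrays held identical values. The labels number animals as separate rats. Titles call the 4 vehicle rats of experiment B controls, while a second description line names 1 mg/kg; the title was followed. The number of arrays limits the precision. Alternatives were another scaling, floor, filter and prior, array weights, a replicate block, leaving out experiments, first-repeat arrays or single arrays, and other choices for the correlations.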

Additional observations from a re-analysis of the deposited data

Results flagged for a closer look

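One value lay far from the rest of its group. Vehicle rat 2 of experiment B had a log2 intensity of 8.86 for Sqle, where the other 3 vehicle rats of B had 9.41 to 9.44. Its gap to the nearest of them was 0.948 of the group's range, above Dixon's 95% critical value of 0.829 for 4 samples. Over 10 probe sets in the 4 groups of 4 or more rats, 40 sets of values were examined, and 1 passed. Chance passes this limit in about 1 of 20 sets, so a single pass is no more than chance gives. The same rat had the lowest Insig1, Cyp51 and Idi1 of the 4 vehicle rats of B, at 10.12, 10.61 and 8.58.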

How the results depend on the processing

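None of the 10 probe sets passed in any dose comparison under the alternatives, with 1 exception. Of 9180 alternative values of 190 member changes, 1 had an adjusted p under 0.05, the second Cyp51 probe set within B at 30 mg/kg without 30 mg/kg rat 2 (-1.15, adjusted p = 0.0344), and 297 had the other sign. Members passing between vehicle groups numbered 0, against 2 with array weights and 0 to 2 with 1 array left out. The 15 correlated pairs stayed 15 under the other settings and were 13 to 15 with 1 rat left out: Fdft1 with Cyp51 lost its call in 10 such fits and Idi1 with Dhcr7 in 3, without 30 mg/kg rat 3 of B, 1 mg/kg rat 2 of C or 5 mg/kg rat 4 of C (r 0.42, 0.50 and 0.43).

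Counts over all probe sets moved more, and the cause was not tested. With no filter on dim probe sets the calls were 2 at 0.5, 10 at 30 and 0 at 50 mg/kg, 0 within A at 50, 3, 8 and 15 within B at 0.5, 5 and 30, and 2 for the 5 mg/kg difference. With the filter at the median they were 1 at 50, 0 within A at 10, 0 and 4 within B at 5 and 30, and 1 for the difference. Median scaling alone gave 1 at 50 and 0 within A at 10. Array weights gave 19 at 30, 13 at 50, 3 in the trend, 3 and 24 within A at 1 and 50, 23 within B at 30, 4 within C at 5, 17 for the difference and 1526 between vehicle groups, in place of 866. Without experiment A there was 1 call at 30; without B, 0 at 50 and 1 in the trend; without C, 6 at 30, 66 at 50 and 94 in the trend. Fits of 1 experiment alone gave 0 within A at 10, 94 within A at 50 and 0 within B at 5. Without the arrays labelled as a first repeat there were 0 within A at 10, 1 within B at 5, 1 within C at 10 and 536 between vehicle groups.

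With 1 array left out, calls ranged from 0 to 5 at 0.5, 0 to 3 at 30, 0 to 5 at 50 and 0 to 2 in the trend. They ranged from 0 to 1, 0 to 1 and 0 to 58 within A at 1, 10 and 50, from 0 to 2, 0 to 4 and 0 to 15 within B at 0.5, 5 and 30 (members 0 to 1), and from 0 to 1 within C at 1, 5 and 10. The differences gave 0 to 2 at 10 and 0 to 3 at 5 mg/kg, and the vehicle groups 290 to 1132.

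With animal number as a replicate block, 4 probe sets passed at 50 mg/kg in place of 2, 0 within A at 10 in place of 1 and 0 within B at 5 in place of 2. No member passed with the block, and the numbers were not taken to pair the rats.

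Groups of 1 to 5 rats leave wide intervals, and probe sets without detection calls cannot be called absent. Dim values are compressed by the floor.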

Other observations

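Among probe sets with 1 symbol, the 6 genes with the lowest correlation with the mean of the 7 cholesterol genes were chosen after their values were seen. Correlations were over 39 rats with group means removed. They were Tagln2 (r = -0.87), Emc3 (-0.86), Esam (-0.82), Tmem88 (-0.82), Cyba (-0.81) and Ifitm1 (-0.81). Esam encodes an adhesion molecule of endothelial cells and Cyba a subunit of the phagocyte NADPH oxidase. Tagln2 had r of -0.63 in A, -0.94 in B and -0.90 in C, and -0.80 without the 2 farthest rats. Tmem88 had -0.89 in A, -0.85 in B and -0.80 in C.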
